A study of Homo sapiens with 18 samples.

Results

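RNA polymerase II (RNAPII) peaks at promoters were compared between transformed breast epithelial cells without and with the transcription inhibitor triptolide (TPL). The members are the peaks of 2 lists, 11056 peaks of TAM cells and 8464 peaks of TAM + TPL cells, which make up 19520 of the 39395 peaks in the 4 lists of the series. They were taken whole from those lists, with no choice by value. The cells are MCF10A-ErSrc, a human breast epithelial line that carries a v-Src kinase fused to a part of the oestrogen receptor and is transformed when tamoxifen switches the kinase on. TAM cells (labelled T) received 2 µM tamoxifen and NT cells received none. Each kind of cell then received either TPL at 0.125 µM or its solvent DMSO for 4 h, and RNAPII was precipitated with the antibody 8WG16 in 2 biological replicates per condition. All conditions carry the same v-Src transgene and belong to a single engineered line. RNA-Seq of the same conditions, 2 libraries per condition with 7461309 to 8349448 expected counts each, gave the independent readout set beside the peaks.

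RNAPII starts at the transcription start site (TSS) of a gene, and on many genes it halts shortly downstream, where it waits for the kinase P-TEFb to release it into the gene body. TFIIH opens the DNA at the start through its XPB subunit, and TPL binds XPB and blocks that step, after which RNAPII itself is degraded. Short-lived messages such as those of immediate early genes and cytokines fall soonest when synthesis stops, while stable messages can persist for many hours.

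Each list gives the start and end of a peak and no height, read count or score, so width and position are the measures available and the read depth behind them is unknown. There was 1 list per condition, so no comparison of peaks has a replicate or a test, and the intervals given for shares cover counting error only. The names of the peaks carry replicate 1 of each condition, and whether the replicates were pooled is not stated. The names also carry different settings. The TAM list was made with a setting of 0.1 written as q, and 41.5% of its peak names end in a letter, while the TAM + TPL, NT and NT + TPL lists were made with a cutoff of 0.02. Every difference between the TAM and TAM + TPL lists therefore joins the drug with the setting, and they cannot be told apart within these lists. The NT and NT + TPL lists share their cutoff and are given beside the TAM values for that reason. On chromosomes 1 to 22, X and Y, which the rest is about, the TAM list held 11007 peaks and the TAM + TPL list 8434.

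The following promoters of genes that the study describes show what the 3 classes of promoter look like in sequence: PHACTR4 lost its peak with TPL, FOS kept one, and EGR4 lay in a peak only in the TAM + TPL list. Each sequence covers the 180 bases before the canonical TSS and its first 20 bases, 5′ to 3′ on the gene's strand in genome build GRCh37, the build called hg19 in the study. Capitals mark matches on either strand to the letters GGGCGG for a GC box, CCAAT for the box of that name, CCGGAA for an ETS site, TGACTCA for an AP-1 site, TGACGTCA for a site of CREB factors and CACGTG for an E box. A match to TATAAA, for a TATA box, was taken on the sense strand where it starts between 40 and 20 bases before the TSS.
PHACTR4: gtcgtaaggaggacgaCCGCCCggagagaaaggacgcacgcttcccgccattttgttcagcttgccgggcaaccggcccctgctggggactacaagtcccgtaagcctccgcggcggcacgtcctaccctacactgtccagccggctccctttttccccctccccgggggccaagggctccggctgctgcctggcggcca
FOS: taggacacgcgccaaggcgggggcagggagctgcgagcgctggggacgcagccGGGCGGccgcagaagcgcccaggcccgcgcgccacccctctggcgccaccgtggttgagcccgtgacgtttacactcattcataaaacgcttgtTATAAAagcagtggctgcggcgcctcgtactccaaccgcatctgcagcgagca
EGR4: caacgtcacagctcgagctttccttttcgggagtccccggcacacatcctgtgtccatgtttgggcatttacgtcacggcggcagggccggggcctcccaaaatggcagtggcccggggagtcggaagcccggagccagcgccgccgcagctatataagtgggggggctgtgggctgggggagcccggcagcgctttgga
They lie at chr1:28696071-28696270 (plus strand), chr14:75745351-75745550 (plus) and chr2:73520657-73520856 (minus), in that order. FOS carries a TATA box with 1 GC box before it. PHACTR4 carries 1 GC box, and the EGR4 window holds none of the 7 motifs.

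Fewer promoters held a listed RNAPII peak with TPL. Of 11007 TAM peaks, 2993 (27.2%, 95% Wilson interval 26.4 to 28%) shared no base with a TAM + TPL peak and are called lost, and 8014 (72.8%) were kept. Of 8434 TAM + TPL peaks, 619 (7.34%, interval 6.80 to 7.92%) shared no base with a TAM peak and are called new. The share new was 31.6% where a match had to cover 50% of both peaks and 1.8% for TAM + TPL peaks of 500 bases or more, and the share lost 47.6% and 13% under the same rules. In NT cells, where both lists carry the same cutoff, 3229 of 11162 peaks were lost (28.9%, interval 28.1 to 29.8%) and 505 of 8610 TPL peaks were new (5.87%). In bases, the TAM peaks covered 6.80 Mb and the TAM + TPL peaks 5.05 Mb, and the 3870430 bases they shared were 56.9% of the TAM bases and 76.6% of the TAM + TPL bases.

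Lost peaks were mostly narrow. Their median width in TAM cells was 258 bases (quartiles 185 and 417), against 476 bases (quartiles 284 and 743) for kept peaks. The new peaks were as narrow, with a median of 254 bases against 479 for TAM + TPL peaks that met a TAM peak. Of the TAM peaks under 200 bases, 59.2% were lost, and of those from 500 to under 1000 bases 13.5%. Beyond that width the share changed little, at 11.5% from 1000 to under 2000 bases and 12.8% (45 of 351) for 2000 bases or more. Peaks whose names end in a letter, with a median width of 726 bases, were lost in 17.6% of cases, and those without a letter, with a median of 266 bases, in 34.0%.

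**Figure D1:**
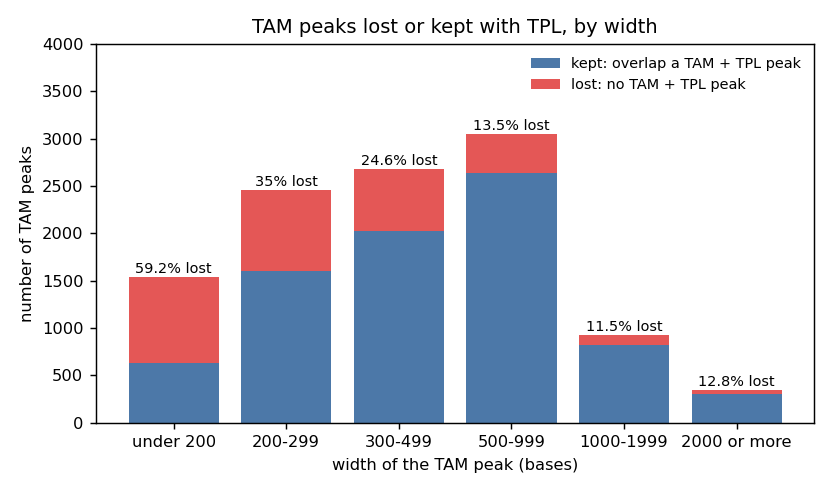
Number of TAM peaks (vertical axis) by width in bases (horizontal axis), with peaks that overlap a TAM + TPL peak in blue and peaks that do not in red. The share lost falls from 59.2% of the narrowest peaks to 11.5% of those from 1000 to under 2000 bases.

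The places that lost a peak in TAM cells mostly held one in NT cells and lost it there too. Of the 2993 lost TAM peaks, 2510 (83.9%) overlapped an NT peak, and 74.6% of these 2510 overlapped no NT + TPL peak. Of the 8014 kept TAM peaks, 7864 (98.1%) overlapped an NT peak, and 7.24% of those overlapped no NT + TPL peak. Among TAM peaks that overlapped an NT peak, and so were also found with the cutoff of 0.02 in other cells, 24.2% were lost. Of the 619 new peaks, 395 (63.8%) overlapped an NT peak and a further 128 overlapped a peak of the NT + TPL list alone, while 96 met a peak of neither NT list.

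Among the peaks kept with TPL, narrowing and widening were about as frequent in TAM cells. A TAM peak met exactly 1 TAM + TPL peak, and the reverse, in 6888 cases, with median widths of 490 and 462 bases. The median ratio of widths, TAM + TPL over TAM, was 1.01 (quartiles 0.731 and 1.33). A narrowing of at least 1.5-fold was found for 1406 peaks (20.4%, interval 19.5 to 21.4%) and a widening of at least 1.5-fold for 1234 (17.9%, interval 17.0 to 18.8%). These values depended on the peaks compared: for TAM peaks of 500 bases or more the median ratio was 0.873 and 32.2% narrowed, and where the match covered 50% of both peaks the ratio was 1.03 and 11.5% narrowed. In NT cells the median ratio was 0.851, with 32.9% of 7017 peaks narrowed and 8.47% widened. The TAM ratio compares lists with different settings and the NT ratio lists with the same one, and the part of the setting in this difference was not tested. Peaks whose mean width over both lists (geometric) was 2000 bases or more narrowed in both kinds of cells, with a median ratio of 0.775 over 137 TAM peaks and 0.686 over 213 NT peaks.

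The list with TPL held fewer broad peaks. TAM cells had 91 peaks over 5000 bases and TAM + TPL cells 26, and NT cells had 191 and 40. Of the 91 broad TAM peaks, 10 were lost, 41 narrowed at least 1.5-fold, 10 kept a similar width, 0 widened and 30 met several peaks or shared a peak. Of the 26 broad TAM + TPL peaks, 3 had widened from a narrower TAM peak.

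**Figure D2:**
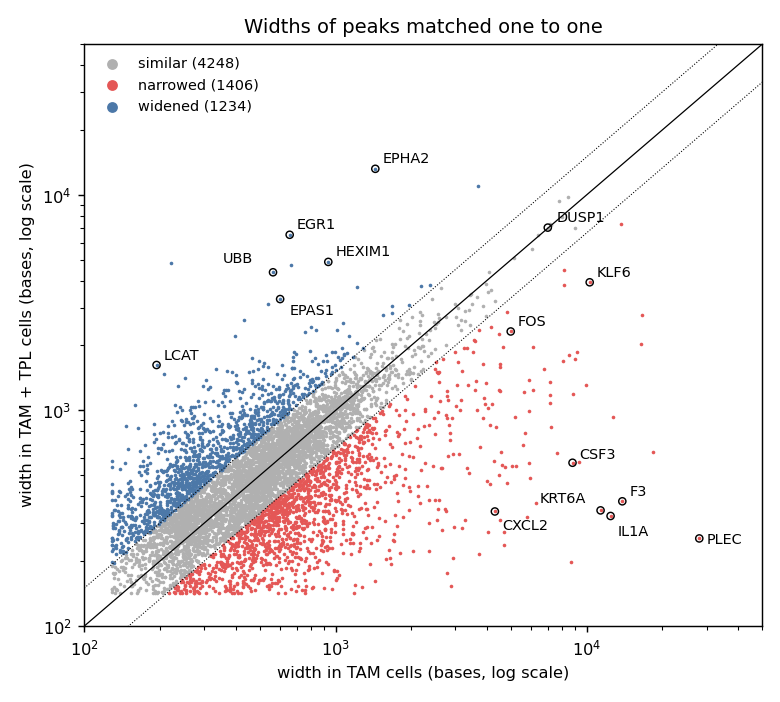
Width of each of the 6888 peaks matched between the lists, in TAM cells (horizontal axis) and TAM + TPL cells (vertical axis), in bases on log scales. Points outside the dotted lines narrowed (red, 1406) or widened (blue, 1234) at least 1.5-fold, and named genes are circled, with PLEC, F3, IL1A and KRT6A far below the diagonal and EPHA2, EGR1 and HEXIM1 above it.

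The edges of kept peaks stayed near where they were around the TSS. The TSS used is that of the Ensembl canonical transcript in GENCODE release 44 placed on build 37, and 4825 matched TAM peaks held canonical starts on 1 strand only. Their downstream edge lay at a median of 211 bases after the TSS in TAM cells and 227 bases with TPL, and the median change per peak was 5 bases (quartiles -62 and 75). The upstream edge lay at a median of -204 bases in TAM and -181 bases in TAM + TPL cells, with a median change of -1 base (quartiles -56 and 76). The centre moved by a median of 4.5 bases downstream, and 12.4% of peaks moved their centre by 100 bases or more upstream against 15.3% downstream. In NT cells both edges came closer to the TSS, the downstream edge by a median of -36 bases and the upstream edge by 31 bases, over 4879 peaks, and the centre moved by -3.5 bases. Over protein-coding genes alone the upstream edge of TAM peaks changed by 5 bases in place of -1, so its direction depended on the genes counted. In the 951 narrowed TAM peaks the downstream edge came back by a median of -188 bases and the upstream edge by 139 bases.

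**Figure D3:**
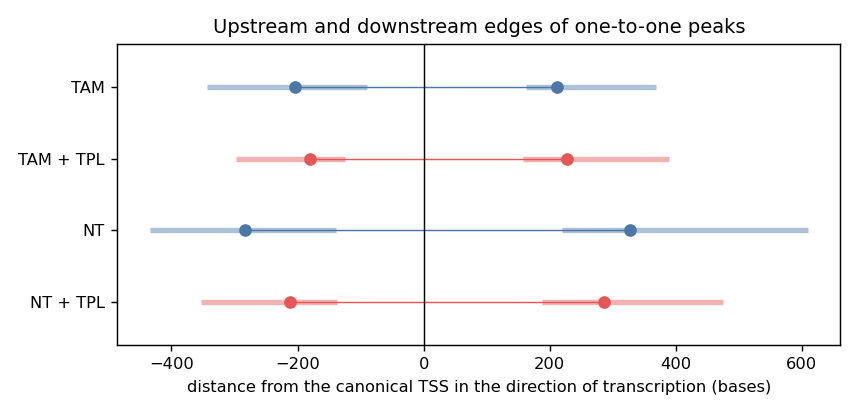
Distance of the upstream and downstream peak edges from the canonical TSS in bases (horizontal axis, transcription to the right) in TAM, TAM + TPL, NT and NT + TPL cells. Points are medians and thick bars the quartiles over 4825 TAM and 4879 NT peaks, and the NT + TPL edges lie closer to the TSS than the NT edges while the TAM edges differ little.

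Gene starts in peaks followed the peaks. Of 10110 genes whose canonical TSS lay in a TAM peak, 2082 (20.6%) lay in no TAM + TPL peak and 8028 lay in one, and 864 lay in a TAM + TPL peak only. Of the 2082 lost starts, 1624 lost the whole peak and 458 lay outside the remainder of a kept peak. Of the 864 new starts, 366 lay in a new peak and 498 in a TAM + TPL peak that overlapped a TAM peak elsewhere. Protein-coding genes made up 76.8% of lost, 84.3% of kept and 77.0% of new starts, and long noncoding RNA genes 21.3, 14.8 and 21.4%. Of the 2082 lost starts, 1309 were also lost in NT cells, 526 were kept there and 216 lay in no NT peak with or without TPL.

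Lost and kept peaks differed in what they hold. A canonical TSS lay in 49.8% of lost peaks, 84.8% of kept peaks and 53.2% of new peaks, and any annotated TSS in 67.3, 92.4 and 67.0%. Both lists thus hold peaks without a start in the annotation used here. Where a canonical TSS was present, starts on both strands, as at divergent promoters, were found in 5.03% of lost, 19.5% of kept and 7.29% of new peaks. Among kept peaks, they were found in 21.5% of narrowed, 21.5% of similar and 12.4% of widened peaks. Lost and new peaks are also narrower than kept ones, and the part of width in these shares was not tested.

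The share of promoters with an ETS site was lower among lost than among kept promoters. Over the 250 bases before and 50 bases from the canonical TSS of protein-coding genes (GRCh37), CCGGAA on either strand was present in 19.8% of 1600 lost, 41.2% of 6766 kept and 39.7% of 665 new promoters, against 22.8% of all 19881 protein-coding promoters. CCAAT was present in 51.3% of new promoters, against 36.7% of kept, 32.1% of lost and 36.0% of all. A TATA box was rare in every class, in 0.938% of lost, 2.07% of kept, 1.2% of new and 3.9% of all promoters, and more frequent where the peak narrowed (3.36% of 1192) than where it kept a similar width (1.64% of 4028). AP-1 sites were present in 3.31% of lost, 3.69% of narrowed, 1.94% of similar, 2% of widened and 3.56% of all promoters. GC content was highest in lost promoters, with a median of 69.7% against 66.3% in kept, 64.3% in new and 63.7% in all. These shares describe letters in a window, with no test.

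RNA levels were compared in the same cells to see what the genes of each promoter class did. Expected counts were tested with edgeR's quasi-likelihood test over 15756 genes, and a gene changed where its Benjamini-Hochberg adjusted p was at most 0.05. A stricter call, with the study's thresholds, also required a log2 fold change of 1.2 or more in size and an adjusted p no higher than 0.001. With TPL, 3214 genes (20.4%) rose and 3700 (23.5%) fell, and the strict call took 619 higher (3.93%) and 1151 lower (7.31%). Leaving out a TAM or TAM + TPL library lowered the strict counts, to 136 higher and 389 lower without T replicate 1, 148 and 432 without T replicate 2, 167 and 241 without TT replicate 1, and 225 and 256 without TT replicate 2. Leaving out an NT + TPL library, which enters through the shared estimate of the spread, raised them to 915 and 1509 without NTT replicate 1 and 908 and 1508 without NTT replicate 2. The values are relative to the total RNA of a library, so a loss of RNA common to all genes would not show in them. Over all genes tested, the median fold change on the log2 scale was 0.05, and 0.10 when scaled by library size. The 2 libraries of a group were independent biological replicates per the study's methods.

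RNA of genes that lost their promoter peak fell in a larger share than RNA of genes that kept it. Of 1596 tested genes with a lost start, 659 (41.3%) fell and 179 (11.2%) rose, and the strict call took 279 lower (17.5%) and 24 higher (1.5%). Of 6801 genes with a kept start, 1993 (29.3%) fell and 981 (14.4%) rose. The 666 genes with a new start were near the share of all genes, with 163 (24.5%) that fell and 141 (21.2%) that rose, but the average joins unlike groups. Of 318 tested genes whose start lay in a new peak, 94 (29.6%) rose and 62 (19.5%) fell, with a median log2 fold change of 0.09. Of 348 whose start lay in a TAM + TPL peak that overlapped a TAM peak elsewhere, 47 (13.5%) rose and 101 (29.0%) fell, with a median of -0.16. Without a TAM or TAM + TPL library the genes with a lost start that fell numbered 467 to 519 (29.1 to 32.3%) and those with a kept start that fell 1221 to 1428 (17.9 to 20.9%), with the lowest counts of both without TT replicate 1. Without an NT or NT + TPL library they numbered 638 to 718 with a lost start and 1919 to 2349 with a kept start. Genes with a lost start that rose numbered 84 without T replicate 1, 81 without T replicate 2, 88 without TT replicate 1 and 94 without TT replicate 2.

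The median log2 fold change was -0.47 for lost (quartiles -1.25 and 0.24), -0.16 for kept, -0.05 for new and 0.50 for the 5960 tested genes whose start lay in no peak of either list, beside 0.03 over all 15023 genes with a canonical TSS. Genes in no peak were mostly low, and the filter on low counts can keep such a gene through the TPL libraries alone. Of these genes 28.6% rose, against 18.0% with no filter and 29.9% with at least 10 counts in every library. In each TPL library set against the mean of the TAM libraries, the median change in log2(FPKM + 1) was -0.36 and -0.32 for lost, -0.14 and -0.07 for kept and 0.31 and 0.24 for genes in no peak, so the order of these 3 classes was the same in both. For new promoters it was -0.03 and -0.00, and scaling by library size turned the median fold change to 0.00. Genes with lost starts were also less expressed, with median levels of 6.46 and 6.31 FPKM in the TAM libraries against 12.2 and 12.3 for kept, 6.51 and 6.51 for new and 0.28 and 0.29 for genes in no peak. These levels are over all genes joined to RNA, tested or not: 1692 lost, 6965 kept, 693 new and 10433 in no peak.

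Among kept peaks, the genes in narrowed ones had the lowest median RNA change and those in widened ones the highest. The genes whose start lay in a narrowed TAM peak had a median log2 fold change of -0.35 (1199 tested, 38.7% fell and 9.26% rose), those in a peak of similar width -0.15 (4050 tested, 28.3% and 15.0%), and those in a widened peak -0.06 (1043 tested, 24.2% and 17.8%). The strict call took 199 lower and 15 higher in narrowed peaks, and 48 lower and 60 higher in widened peaks. Over all genes joined to RNA, tested or not, the median levels in the TAM libraries were 11.4 and 11.1 FPKM for narrowed, 11.1 and 11.2 for similar, and 14.5 and 14.5 for widened peaks.

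**Figure D4:**
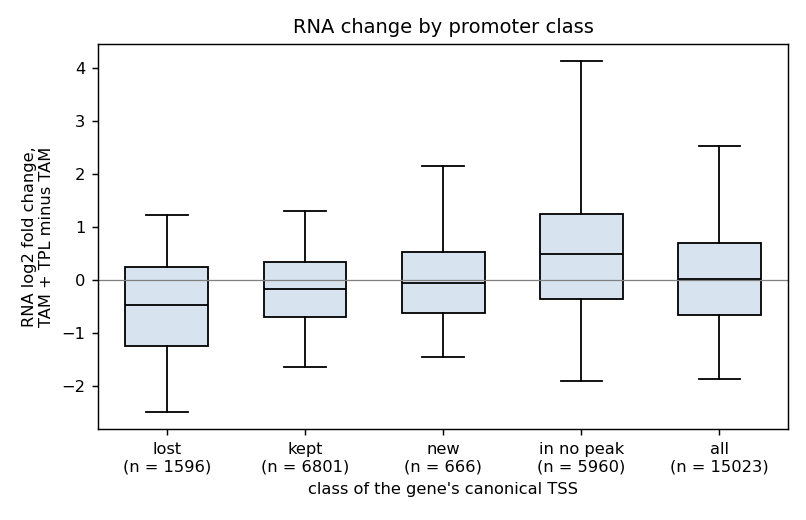
RNA log2 fold change, TAM + TPL minus TAM (vertical axis), of genes by the class of their canonical TSS. Boxes show the median and quartiles and whiskers the 5th and 95th percentiles, and the median rises from -0.47 for lost to -0.16 for kept, -0.05 for new and 0.50 for genes in no peak.

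Several of the named broad peaks that were lost or narrowed lay on cytokine genes. CXCL1, a chemokine that draws neutrophils, had a peak of 5054 bases in TAM cells (chr4:74733904-74738957) and none with TPL. Its RNA was at 418 and 432 FPKM in TAM and 8.06 and 3.48 FPKM in TAM + TPL, with no overlap between groups (log2 fold change -6.27, SE 0.399, edgeR adjusted p = 1.82e-06). The related chemokines CXCL2 and CXCL3 kept a remnant at the start: the CXCL2 peak went from 4307 to 340 bases and the CXCL3 peak from 4665 to 237 bases. CXCL2 RNA was at 388 and 398 FPKM in TAM and 5.4 and 4.94 FPKM with TPL, and CXCL3 RNA at 249 and 233 and at 5.92 and 3.88 FPKM. Both RNAs fell, with log2 fold changes of -6.30 for CXCL2 and -5.66 for CXCL3. IL1A, the cytokine interleukin 1 alpha, had a peak of 12434 bases that became 324 bases (ratio 0.0261), and its RNA went from 71.1 and 79.5 to 13.1 and 12.1 FPKM. The peak of CSF3, which encodes the granulocyte growth factor G-CSF, went from 8773 to 572 bases and its RNA from 255 and 240 to 9.93 and 6.72 FPKM. IL1B, the partner cytokine of IL1A, lost a peak of 2844 bases, with RNA at 65.7 and 81.1 FPKM before and 10.2 and 5.51 FPKM with TPL. In NT cells the starts of IL1B and CXCL1 were lost from peaks as well. The starts of CXCL2, CXCL3 and CSF3, whose peaks narrowed in TAM cells, were also lost from peaks in NT cells, while IL1A kept a peak of 171 bases.

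Other named broad peaks that were lost or narrowed lay on keratin, adhesion and further genes. KRT5, a keratin of basal epithelial cells, lost a peak of 7878 bases (chr12:52906437-52914314), and KRT17, a keratin induced in stressed epithelium, one of 6898 bases. KRT5 RNA was at 1308 and 1308 FPKM in TAM and 475 and 434 FPKM in TAM + TPL, and KRT17 RNA at 1554 and 1408 and at 831 and 742 FPKM. Both RNAs fell, with log2 fold changes of -1.57 for KRT5 and -0.96 for KRT17, and in NT cells KRT5 kept a peak of 506 bases. ITGB4, the integrin of hemidesmosomes, lost a peak of 5900 bases, while its RNA was at 266 and 209 FPKM without and 317 and 298 FPKM with TPL (log2 fold change 0.32, SE 0.186, edgeR adjusted p = 0.178). The keratin KRT6A went from 11344 to 344 bases, with RNA at 4062 and 4623 FPKM before and 2400 and 2190 FPKM after. PLEC, the linker protein plectin, had the smallest ratio of all named peaks, from 28029 to 255 bases (ratio 0.0091), and its RNA fell (log2 fold change -1.42), from 212 and 168 to 72.6 and 73.2 FPKM. F3, tissue factor, which starts blood clotting, went from 13845 to 379 bases and from 265 and 296 to 20.9 and 16.5 FPKM. The S100A2 peak went from 8632 to 199 bases and no longer covered the TSS, with RNA at 554 and 633 FPKM before and 284 and 358 FPKM after. LAMB3, a laminin chain, had the broadest TAM peak of the list at 44405 bases, and 1 of 500 bases over its TSS with TPL. These LAMB3 peaks did not match one to one.

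Lost promoters also held genes whose RNA fell from moderate levels to near 0. FOXF2, a forkhead transcription factor, had a peak of 164 bases, and its RNA went from 16.4 and 15.1 to 0.24 and 0.39 FPKM. CDCA7, a MYC-responsive gene needed for DNA methylation at repeats, had a peak of 253 bases and went from 15.8 and 18.4 to 0.66 and 0.8 FPKM. The RNA of RREB1, a zinc finger factor that acts with RAS signals, went from 29.8 and 23.8 to 1.05 and 1.17 FPKM, and its TAM peak of 2597 bases was left with TPL peaks that did not cover the TSS. NFE2, a factor of blood cells, went from 4.45 and 3.47 to 0.16 and 0.14 FPKM. The fold changes lay between -5.64 and -4.59 on the log2 scale. For all 4 genes the TPL libraries lay below both TAM libraries, which the rule that chose the largest falls required.

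A smaller set lost the peak at the canonical start while the RNA rose. Peaks at other starts of these genes are not given here. AOC2, a copper amine oxidase, lost a peak of 341 bases and went from 0.87 and 0.92 to 16 and 13.2 FPKM (log2 fold change 4.02, SE 0.273, edgeR adjusted p = 2.67e-06). TESK2, a kinase that acts on cofilin, went from 0.68 and 0.55 to 5.86 and 5.42 FPKM, and MICALL2, which organises actin at cell junctions, from 2.34 and 1.97 to 22.1 and 16.6 FPKM. PHACTR4, a regulator of protein phosphatase 1 whose promoter is printed above, lost a peak of 826 bases, while its RNA rose from 26 and 24.4 to 58.2 and 52.1 FPKM (log2 fold change 1.08, SE 0.157, edgeR adjusted p = 0.000282). In NT cells, where the cutoff was the same, PHACTR4 and MICALL2 kept their peaks, and TESK2 had one with TPL only. For these 4 genes both TPL libraries lay above both TAM libraries. The rule that chose AOC2, TESK2 and MICALL2 required this, and PHACTR4 was taken as a gene the study describes.

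The named promoters with the largest gain in breadth were among the 1234 widened peaks, apart from POLR2A, whose peaks did not match one to one. EPHA2, an ephrin receptor tyrosine kinase, had a peak of 1440 bases in TAM cells and 13189 bases with TPL (chr1:16469751-16482939, ratio 9.16), and its RNA rose from 69 and 54.6 to 193 and 179 FPKM. HEXIM1, which holds P-TEFb inactive, widened from 936 to 4882 bases and rose from 20 and 19.2 to 79.0 and 78.4 FPKM. UBB, a polyubiquitin gene, widened from 564 to 4370 bases and rose from 496 and 550 to 1090 and 861 FPKM. POLR2A, which encodes the largest subunit of RNAPII, had a peak of 965 bases over its TSS without TPL and 8607 bases with TPL, and its RNA rose from 84.4 and 80.2 to 563 and 398 FPKM. The POLR2A widths are those of the peaks over the TSS alone, and further peaks that these met are not counted in them. EPAS1, the hypoxia factor HIF-2α, widened from 602 to 3283 bases, with RNA at 95.6 and 77.3 FPKM before and 127 and 149 FPKM after (log2 fold change 0.63, edgeR adjusted p = 0.0558). EGR1, an immediate early transcription factor, had the largest ratio of the named peaks (9.93), from 657 to 6522 bases, while its RNA was at 212 and 172 FPKM without and 120 and 118 FPKM with TPL (log2 fold change -0.74, edgeR adjusted p = 0.0716). LCAT, the cholesterol acyltransferase of plasma, widened from 194 to 1624 bases with RNA at 7.17 and 6.16 and at 4.23 and 4.24 FPKM. CCNL2, a cyclin of splicing, widened from 665 to 4732 bases, with RNA at 47.3 and 35.8 FPKM before and 60.6 and 68.1 FPKM after. In NT cells the EPHA2 peak had 1590 and 1420 bases and the POLR2A peak 1400 and 1708 bases without and with TPL, and the EGR1 peak had 5285 and 6581 bases.

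The kept promoters with the largest rises had narrow peaks in both lists. TENT5C, a poly(A) polymerase, had peaks of 179 and 344 bases and went from 0.29 and 0.17 to 11.7 and 12.8 FPKM. FAM222A had peaks of 176 and 393 bases and went from 0.78 and 0.71 to 26.2 and 21.5 FPKM, and HAP1, a partner of huntingtin, had peaks of 218 and 290 bases and went from 0.24 and 0.34 to 15 and 11 FPKM. All 3 had peaks in NT cells with and without TPL.

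Starts that lay in a peak with TPL only had RNA that rose, fell or did not pass the test. Such a start can lie in a TAM + TPL peak that overlapped a TAM peak elsewhere, as 498 of the 864 new starts did. The start of MAFA, a basic leucine zipper factor, lay in a peak of 260 bases with TPL, and its RNA and went from 0.05 and 0.15 to 7.12 and 6.94 FPKM. CCDC62 had such a peak of 449 bases and went from 0.07 and 0.1 to 6.15 and 4.26 FPKM. VASN, which encodes the membrane protein vasorin, had one of 324 bases and went from 0.21 and 0.21 to 8.99 and 8.84 FPKM. RND1 had one of 408 bases and went from 0.43 and 0.22 to 11.3 and 9.07 FPKM. All 4 RNAs rose. MAFA and CCDC62 had a peak only with TPL in NT cells too, while VASN and RND1 had NT peaks without TPL. The start of CTTNBP2NL lay in a peak of 488 bases with TPL only, and its RNA fell from 7.26 and 6.5 to 0.96 and 1.24 FPKM. This peak overlapped a TAM peak of 288 bases that did not hold the start. SPRYD3 (392 bases), TOMM40L (162 bases) and ZNF584 (559 bases) also had a peak over the start with TPL only and RNA that fell, with log2 fold changes of -2.35, -2.30 and -2.24. All 4 of these starts lay in an NT peak without TPL. The widest new peaks with a single protein-coding start included GPBP1 (1242 bases), INO80D (901 bases) and POLR3E (818 bases), of which POLR3E, a subunit of RNA polymerase III, fell from 16.1 and 13.1 to 6.71 and 6.42 FPKM. GPBP1 RNA was at 10.7 and 12.8 and at 11 and 11.5 FPKM, and INO80D RNA at 2.93 and 2.55 and at 3.12 and 2.88 FPKM, and neither passed the test. The histone gene H4C15 had a new peak of 1855 bases while its near-identical neighbour H4C14 lost one of 1498 bases, and reads of such copies cannot be assigned with certainty.

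The gene lists ordered by function showed where promoter peaks went. Among 8366 protein-coding starts in a TAM peak, 19.1% were lost, and of 6268 in a one-to-one peak 19% narrowed and 16.7% widened. Of 13532 protein-coding genes tested for RNA, 18.6% rose and 26.5% fell. Housekeeping complexes mostly kept their peaks. The 9 TFIIH subunits and the 12 RNAPII subunits with a start in a TAM peak kept it, and none of the 30 proteasome subunits lost one. Of 28 proteasome starts in one-to-one peaks, 13 (46.4%) widened and 0 narrowed, among them PSMB4 from 404 to 741 bases, and the starts of PSMD8, PSMB3 and PSMC3 lay in a peak with TPL only. Of 37 proteasome RNAs 0 rose and 8 fell, with a median log2 fold change of -0.13. The share that fell was no larger than over all protein-coding genes. Cytosolic ribosomal proteins lost 1 of 75 starts, and 11 of 78 tested rose while 0 fell. The share that rose was below that of all protein-coding genes. Mitochondrial ribosomal proteins lost 5 of 76, and 39 of 78 fell while 0 rose, with a median of -0.62. Of the 39, 12 passed the strict call, among them MRPS26, which lost its peak (log2 fold change -2.18), and MRPL4, which kept it (-1.30).

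Immediate early genes kept their starts in peaks while the RNA of most fell. Of 17 immediate early genes with a start in a TAM peak, 0 were lost, 3 of 15 narrowed and 4 widened, and 16 of the 26 tested fell while 6 rose, with a median log2 fold change of -1.33. Over all protein-coding genes tested, 26.5% fell and 18.6% rose. DUSP1, a MAP kinase phosphatase, kept its breadth, 6993 and 7040 bases, while its RNA went from 621 and 598 to 21.4 and 34.7 FPKM (log2 fold change -4.49). In NT cells the DUSP1 peak went from 5580 to 861 bases. ZFP36, which speeds the decay of AU-rich messages, also kept it, 3973 and 3856 bases, with 1205 and 1011 FPKM before and 101 and 92.1 FPKM after. FOS narrowed from 4980 to 2323 bases and fell from 555 and 454 to 21.8 and 26.8 FPKM, and KLF6 narrowed from 10268 to 3927 bases and fell from 211 and 184 to 7.6 and 9.04 FPKM. FOSL1 and NR4A2 had a peak over the start with TPL only (1583 and 199 bases), and both RNAs fell (log2 fold changes -1.23 and -2.09). Of 19 starts of NF-kB genes and cytokines in a TAM peak, 3 were lost, 5 of 13 (38.5%) narrowed and 0 widened, and 17 of 25 tested fell while 2 rose. NFKBIA, the inhibitor of NF-kB, kept a peak of similar width, 3058 and 2502 bases, with RNA at 429 and 423 and at 34.8 and 42.9 FPKM, and SOCS3, the STAT inhibitor, went from 268 and 222 to 14 and 18.2 FPKM.

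Several lists lost a larger share of starts than all protein-coding genes. Circadian clock genes lost 3 of 6, as did EMT regulators and cadherins, and interferon-stimulated genes lost 3 of 9. In NT cells clock genes lost 4 of 6, and EMT and interferon-stimulated genes 2 of 6 each. With so few starts, these shares turn on 1 or 2 genes. Of 16 basal keratins, laminins and integrins in a TAM peak, 7 (43.8%) were lost, and of the 6 in one-to-one peaks 5 narrowed. Of 20 tested, 8 fell and 0 rose, beside 26.5% and 18.6% of all protein-coding genes tested. In NT cells 9 of 17 starts of this list were lost. G1/S and replication genes lost 7 of 17 (41.2%), and 6 of 12 in one-to-one peaks narrowed and 0 widened, with 15 of 24 that fell and 0 that rose. MCM7, a subunit of the replicative helicase, went from 1089 to 379 bases away from the TSS and its RNA fell (log2 fold change -1.51), and CDT1, which licenses origins, from 647 to 197 bases away from the TSS and fell (-1.18). In NT cells, G1/S genes lost 4 of 24 starts. Mitosis genes had 8 of 24 starts in a TAM peak but 20 of 24 in an NT peak, of which 0 were lost with TPL. In TAM cells CDC20 and AURKA lost their start from a peak and their RNA fell (log2 fold changes -1.69 and -1.59). CCNB1 and TPX2 had a peak over the start with TPL only and their RNA fell as well. LINC noncoding genes lost 45 of 93 (48.4%) starts in TAM and 45 of 96 (46.9%) in NT cells. Of 348 tested, 143 rose and 5 fell, with a median log2 fold change of 0.97. Only these 348 of 2235 LINC genes were tested, and the filter on low counts can keep a gene through the TPL libraries alone. The part of this filter in the rise was not tested. The same limit holds for antisense genes. Antisense genes lost 91 of 307 (29.6%) starts in TAM and 169 of 405 (41.7%) in NT cells. Among all long noncoding RNA genes, 444 starts were lost and 1190 kept in TAM cells, a share lost close to that of antisense genes. Of 479 antisense genes tested, 151 rose and 17 fell, and their reads cannot be told from those of the overlapping genes because the strand of the libraries is not stated. Replication-dependent histones lost 3 of 53, and 18 of 41 (43.9%) narrowed, but poly-A selection does not capture most of their RNA.

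Heat shock genes lost 1 of 13 starts, and 4 of 8 one-to-one peaks widened and 0 narrowed, among them HSP90AA1 from 1129 to 2212 bases with RNA at 338 and 390 and at 313 and 341 FPKM. HSPA8, whose peaks did not match one to one, went from 9547 to 1518 bases and its RNA from 2210 and 2177 to 1066 and 974 FPKM. Genes of ATF4 and the unfolded protein response lost 1 of 12, and HSPA5, the chaperone BiP, widened from 509 to 1178 bases and rose from 126 and 139 to 232 and 241 FPKM. Of 17 p53 target genes in a TAM peak, 4 (23.5%) were lost, near the 19.1% of all protein-coding starts. In NT cells 0 of 16 were lost, beside 22.9% of all protein-coding starts. The part of the list settings in this difference between TAM and NT cells was not tested. Of 19 p53 targets tested, 7 rose and 4 fell, beside 18.6% and 26.5% of all protein-coding genes tested. CDKN1A, the cell cycle inhibitor p21, kept 2547 and 2575 bases and rose from 77.6 and 78.8 to 181 and 143 FPKM, and TP53I3 lost a peak of 1421 bases and fell (log2 fold change -0.85). Chromosome 19 zinc finger genes lost 16 of 101, had 30 new starts, and 83 of 217 tested rose and 21 fell. BCL2L1, the survival factor BCL-XL, kept its start in a peak and its RNA fell (log2 fold change -2.42), and the clock gene BHLHE40 lost its start from a peak and fell (-2.99).

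**Figure D5:**
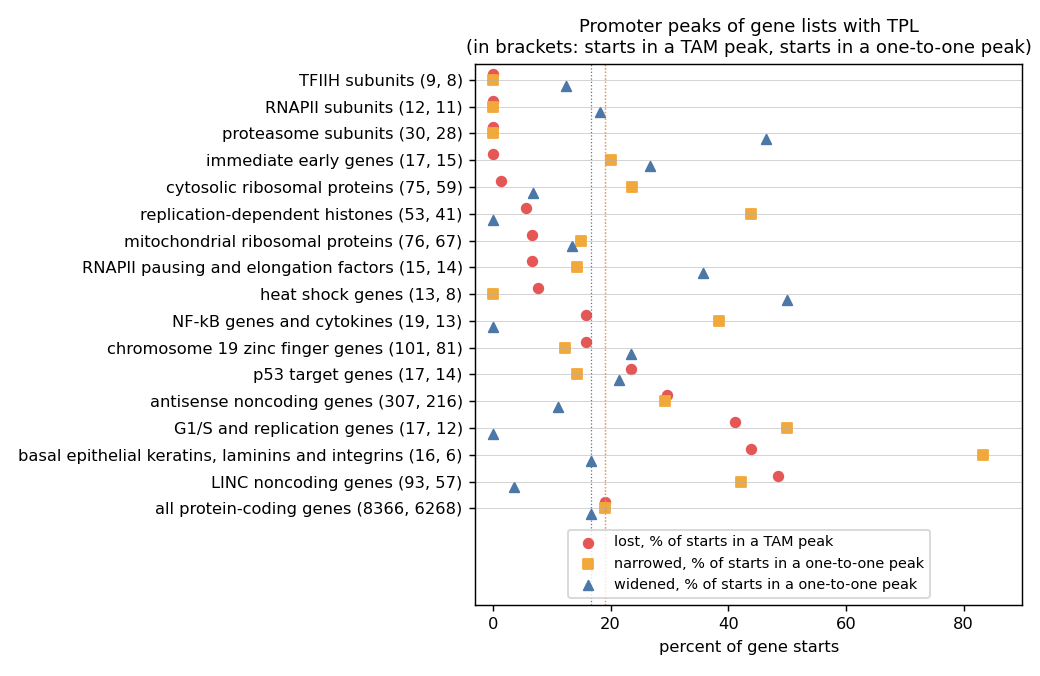
Share of gene starts (horizontal axis, percent) in each gene list that were lost with TPL (red circles), narrowed (orange squares) or widened (blue triangles) at least 1.5-fold, with dotted lines at the values of all protein-coding genes. Proteasome and TFIIH subunits lie at 0% lost and narrowed, while LINC genes lie at 48.4% lost and basal keratins, laminins and integrins at 43.8%.

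The genes the study describes were chosen on these samples, so their counts are no independent evidence. Of 16 with a canonical start in the annotation, 10 were kept, 4 were new, 1 was lost and SKI lay in no peak of either list, although its RNA rose from 27.2 and 22.2 to 65 and 59.4 FPKM. ID2, an inhibitor of basic helix-loop-helix factors, widened from 285 to 613 bases and rose from 3.01 and 1.98 to 33.2 and 33.1 FPKM. CEMIP2, a membrane hyaluronidase, widened from 332 to 519 bases and rose from 6.3 and 6.22 to 48.7 and 53.3 FPKM, and SNX1, a sorting nexin, from 216 to 542 bases and from 4.7 and 5.21 to 12.1 and 11.3 FPKM. CRY2, a clock repressor, and SNAI1, a repressor of E-cadherin, kept peaks of similar width (191 and 279, 403 and 355 bases) and rose (log2 fold changes 2.14 and 2.05). CLU, the chaperone clusterin, had a peak of 343 bases over its start with TPL only and rose from 4.8 and 3.73 to 57.1 and 37.8 FPKM. SOX9 (255 bases), EGR4 (216 bases) and ARID4A (321 bases) also had a peak over the start only with TPL. Their RNA was at 0.57 and 1.77 and at 3.6 and 2.72 FPKM for SOX9, at 1.35 and 0.7 and at 1.45 and 2.15 FPKM for EGR4, and at 3.52 and 4.7 and at 5.78 and 6.12 FPKM for ARID4A. VEGFA narrowed from 5784 to 321 bases around the TSS, and its RNA fell from 74 and 74.6 to 44.1 and 42.2 FPKM. NT cells had a SOX9 peak without TPL as well (273 bases).

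Of the 6 markers of basal epithelium, KRT5, KRT17, ITGB4 and CDH3 had their start in a TAM peak and 0 of these 4 kept it, while KRT14 and TP63 lay in no peak of either list. None of the 7 markers of luminal, immune, stromal and endothelial cells with a canonical start lay in a peak.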

How the data were processed

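RNAPII ChIP-Seq and RNA-Seq were made by the authors from MCF10A-ErSrc cells. The peak lists give positions only: the authors aligned reads to hg19, called peaks over input with MACS (version 1.4.2 in the submitters' processing notes) and deposited lists named for peaks with a TSS, 1 per condition. The expected counts per gene were estimated by the authors with RSEM after Bowtie2 alignment and deposited without normalization. The deposited FPKM values are the authors' RSEM estimates, scaled by transcript length and library size.

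Positions were counted from 1, and 49 TAM and 30 TAM + TPL peaks on other contigs were left out. Peaks met when they shared a base. Starts came from GENCODE release 44 on build 37, joined to RNA by symbol for 19783 of 55051 genes. Expected counts of entries with the same symbol were summed (23604 entries, 21699 genes), then rounded, and edgeR 4.0.16 (R 4.3.3) tested them in 1 fit of 4 groups, with TMM scaling and its filter on low counts. For fits with a library left out, the remaining library of a group was assumed to vary like the other groups. The common biological coefficient of variation was 0.179. In simulated counts for this comparison with 200 of 15330 genes changed 4-fold, 180 genes were called at an adjusted p of 0.05, of which 12 were unchanged, and 130 by the strict call. Far fewer genes changed there than were called in the data, so it cannot show how the test and scaling do with changes this common. Peak matching was tested on simulated lists. Python 3.11.15 with pandas 2.3.3, numpy 2.4.6, scipy 1.17.1 and matplotlib 3.10.9 made the rest. DESeq2 1.42.0 and limma 3.58.1 on log2(FPKM + 1) and log2(FPKM + 0.1) were alternatives.

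The lists of genes, the classes and the members were chosen with earlier results of these data known. Named genes are those the study describes, the most expressed 3 per list and class, the 5 widest lost and new peaks, the 5 largest and smallest width ratios, and the 5 strict RNA calls with the largest rise and fall per class at a mean of at least 1 FPKM. For these RNA calls the TPL libraries also had to lie all on 1 side of the TAM libraries. Of the genes this rule takes, those without a symbol, with near-identical copies, antisense or read-through genes, and further genes of lists already shown by other members, are not described. LOC730101 had no canonical start in the annotation. Equal replicate numbers did not deviate together (correlations between -0.245 and 0.073), and the main fit used no block. With 2 libraries per group this cannot exclude that samples of equal number were handled together. The ChIP-Seq replicates and inputs were not used here. Some items that the rules take are not reported here.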

Additional observations from a re-analysis of the deposited data

How the results depend on the processing

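Lists of peaks without replicates, read depths or scores cannot show whether a lost peak reflects the cells or the setting of the list, and the 2 lists share no cutoff, so no value could be had at a common one. The share of TAM peaks lost was 28.6% where the match had to cover 50% of the shorter peak, 47.6% for 50% of both, 22.3% where peaks up to 500 bases apart also matched, 13% for peaks of 500 bases or more and 24.2% for TAM peaks that overlap an NT peak, a choice made after seeing the data. The share of TAM + TPL peaks that were new was 8.48, 31.6, 4.06 and 1.8% under the first 4 of these. With 50% overlap of both peaks the median width ratio was 1.03 and the share narrowed 11.5%, and for TAM peaks of 500 bases or more they were 0.873 and 32.2%, while 10.7% narrowed at least 2-fold. The downstream edge changed by 1 base with the nearest TSS of all one-to-one peaks and by 9 bases with 50% overlap of both peaks, and the upstream edge by 5 bases over protein-coding genes, a reversed direction. The share of gene starts lost was 19.1% for protein-coding genes and 19.7% within 500 bases of a peak.

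Strict RNA calls numbered 1057 higher with no filter, 1000 higher with the 2 TAM groups only, 143 higher and 345 lower with entries as deposited, and 3214 higher and 3700 lower at an adjusted p of at most 0.05. They ranged from 136 to 915 higher and from 241 to 1509 lower with a library left out. With a replicate block they numbered 403 higher and 878 lower, and with the numbers of the TPL libraries exchanged, chosen after seeing the data, 626 and 1190. Whether equal numbers pair the samples is not stated. The cause of these differences was not tested.

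The median log2 fold change of genes with a lost start was -0.441 with DESeq2 size factors in edgeR, -0.421 with library size only, -0.375 with at least 10 counts in every library, -0.442 with DESeq2, -0.333 and -0.413 with limma on log2(FPKM + 1) and log2(FPKM + 0.1), and -0.444 with any annotated TSS, and -0.496 to -0.454 with a library left out. For kept starts it was -0.107 with library size only, -0.0977 with at least 10 counts, -0.108 and -0.118 with limma, and -0.182 to -0.133 with a library left out. For new starts it was -0.0184 with DESeq2 size factors and with DESeq2, -0.0153 with at least 10 counts and -0.0756 to -0.044 with a library left out, and it turned to 0.00233 with library size only, 0.00179 and 0.000267 with limma and 0.00693 with any annotated TSS. Median TAM levels of lost, kept and new starts were 6.78, 12.7 and 6.77 FPKM without genes listed at 0, and 5.86, 11.4 and 5.26 FPKM with any annotated TSS.

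Over 95 named genes and 18 settings, 1638 fold changes kept their direction and side of the threshold, 42 lost and 19 gained an adjusted p of at most 0.05, among the former CCNL2, S100A2, LAMB3 and SOX9 and among the latter EPAS1, EGR1, LCAT and ARID4A.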
